A study of Arabidopsis thaliana with 8 samples.

Results

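The comparison set seeds of the 35S-GSH1 line against seeds of the wild type Col-0, both imbibed for 24 h at 22 °C. Its members are the 4 arrays of 8 that carry these labels, 2 of 35S-GSH1 and 2 of Col-0, and they were chosen by label alone. Arabidopsis thaliana RNA was hybridised to Affymetrix arrays of 1 colour, with an array for each sample, and the deposited value is a linear intensity for each probe set, the group of short probes that reports 1 transcript. 35S-GSH1 overexpresses GSH1 in the Columbia (Col-0) background, and the labels do not say how many lines or seed lots were used or whether the replicates were grown or imbibed apart. A p-value here is thus set against the variation of the arrays at hand, and that variation may be technical only. The other 4 arrays hold 35S-GSH1 and Col-0 seeds imbibed for 24 h at 4 °C, which the labels call vernalization, and they serve here to show the same genotypes in other samples.

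Glutathione is a small sulfur-containing peptide that buffers the redox state of the cell, feeds the enzymes that remove peroxides and toxic aldehydes, and is a large store of reduced sulfur. GSH1 encodes glutamate-cysteine ligase, the plastid enzyme of the first and rate-limiting step of its synthesis, and 35S is a viral promoter that drives strong expression in most plant tissues. During imbibition a dry seed takes up water, restarts respiration and translation, and prepares its organelles for germination. The question behind the comparison was how a seed with this transgene differs in its transcripts before any cold is applied.

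The label could not be checked against its own gene, because no probe set is paired with GSH1 in the tables used here. For 8730 of the 22746 probe sets no gene is listed, so a probe set for GSH1 may be among them. The tissue label was set beside markers of seed and other tissues. Of 15 markers of seed storage 1 was paired with a probe set. OLEO3, an oil-body protein of seeds, had intensities of 515 and 603 on the 35S-GSH1 arrays and 478 and 675 on the Col-0 arrays, close to the top of the array. Over all 8 arrays its mean stood at the 96.3rd percentile of all probe sets. Of 20 markers of green tissue 2 were paired with a probe set. LHCB4.1, a light-harvesting protein, was measured at 267 and 269 in 35S-GSH1 and at 225 and 267 in Col-0, and RCA, which activates Rubisco, at 19.6 and 30.0 in 35S-GSH1 and at 36.3 and 29.8 in Col-0. Both overlapped between genotypes. Over all 8 arrays the mean of LHCB4.1 stood at the 92.1st percentile of all probe sets and that of RCA at the 60.3rd. Of 9 markers of endosperm and seed coat 2 were paired, both dim and both flavonoid genes: DFR ranged from 5.03 to 10.2 over the 8 arrays, and BAN from 0.438 to 7.18, with a mean under the filter level.

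The arrays of the 2 genotypes resembled each other as closely as replicates did. Replicates correlated with Pearson's r of 0.966 in 35S-GSH1 and 0.962 in Col-0, and the 4 pairs that cross genotypes gave 0.961 to 0.968. The median absolute log2 difference between arrays was 0.255 for the 35S-GSH1 replicates and 0.283 for the Col-0 replicates, and between genotypes it lay from 0.243 to 0.286. Of 13648 probe sets bright enough to test, 0 passed an adjusted p of 0.05 in limma, the linear model fitted to all probe sets at once. The lowest adjusted p was 0.176, for clpP. An unadjusted p under 0.05 was reached by 779 probe sets (5.71% of those tested), 400 of them higher in 35S-GSH1 (2.93%) and 379 lower (2.78%). The precision was limited by 2 arrays per group: the 95% interval of a log2 difference had a median half-width of 0.52, and for 9492 probe sets (69.5%) the whole interval lay between -1 and 1, so that a change of more than 2-fold fell outside it.

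**Figure D1:**
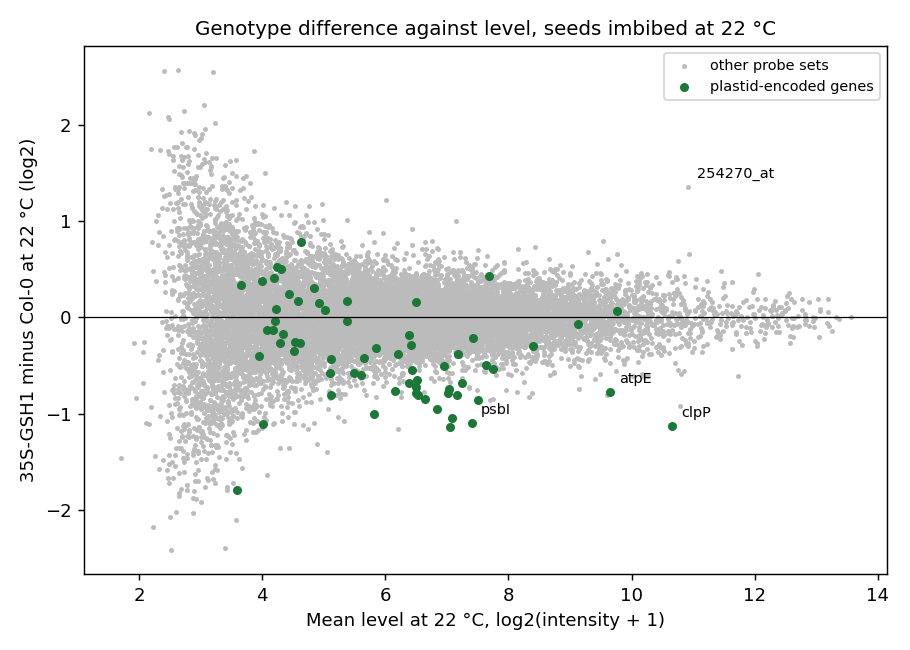
Log2 difference of 35S-GSH1 minus Col-0 at 22 °C (y axis) against the mean log2(intensity + 1) of both groups (x axis), 1 point for each of the 13648 probe sets tested, with 65 plastid-encoded genes in green. The cloud is centred on 0, with a median of 0.0025, while 49 of the 65 green points lie below 0, of which clpP, atpE and psbI are labelled. Probe set 254270_at stands alone at the upper right.

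The clearest feature of the comparison was the plastid genome. Chloroplasts and their precursors keep a small genome of their own, which encodes parts of the photosynthetic complexes together with ribosomal proteins, an RNA polymerase and a protease subunit, and a dry seed holds undeveloped plastids that carry it. Of 69 plastid-encoded genes on the array, 65 were bright enough to test, and none of them passed the adjusted threshold at 22 °C. Their log2 differences had a median of -0.38, against 0.0025 over all probe sets tested and -0.0013 over 7435 nuclear genes. The difference was below 0 for 49 of the 65 (75.4%), as it was for 49.6% of all probe sets. Both 35S-GSH1 arrays lay below both Col-0 arrays for 28 of the 65 (43.1%), against a background of 16.6%, and above both for 1, rpoB, against 16.8%. An unadjusted p under 0.05 with a lower value in 35S-GSH1 was reached by 22 (33.8%, background 2.78%), and with a higher value by 0. The members share 1 genome and are often transcribed together, so they are not independent observations.

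Seen by array, the median plastid gene had an intensity of 57.9 and 44.4 in 35S-GSH1 and of 79.2 and 67.2 in Col-0. The summed intensity of the 65 genes was 8731 and 6226 in 35S-GSH1, against 10689 and 10448 in Col-0. A few bright genes weigh heavily in the sum. Among them clpP had 1143 and 1047 in 35S-GSH1 against 2056 and 2801 in Col-0. psbM had 2153 and 363 in 35S-GSH1 against 877 and 817 in Col-0. The genotypes did not overlap by either measure, while the median nuclear gene moved little, at 50.3 and 50.1 in 35S-GSH1 and 50.1 and 50.2 in Col-0. The plastid median depended on which array stood for its group. It was -0.20 without Col-0 replicate 1, when 36 of the 65 genes were below 0, and -0.62 without Col-0 replicate 2, when 56 were. It was -0.51 without 35S-GSH1 replicate 1 and -0.29 without 35S-GSH1 replicate 2. In a bulk sample, fewer plastids or fewer cells of a type cannot be told apart from less RNA in each of them, and plastid transcripts mostly lack the long poly(A) tails of nuclear ones. The part of either in these values was not tested.

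Ranked by p, 2 plastid genes outside the photosystems came first. clpP, the catalytic subunit of the plastid Clp protease, had intensities of 1143 and 1047 in 35S-GSH1, against 2056 and 2801 in Col-0. Both 35S-GSH1 arrays stood at about the same level, well under the lower Col-0 array. The log2 difference was -1.13 (SE 0.17, n = 2 per group, limma adjusted p = 0.176), a fold of 0.456, the smallest p of all 13648 probe sets, and with a pseudocount of 16 it passed (limma adjusted p = 0.0439). atpE, the epsilon subunit of the ATP synthase, had the next smallest. It was measured at 613 and 616 in 35S-GSH1 and at 1007 and 1098 in Col-0, a log2 difference of -0.77 (SE 0.14, limma adjusted p = 0.545). The spread within each genotype was small beside the gap between them. By contrast atpB, the beta subunit, whose gene is transcribed together with atpE, had 470 and 633 in 35S-GSH1 against 511 and 646 in Col-0, with overlapping arrays and a log2 difference of -0.075.

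Of the 15 ribosomal protein genes of the plastid's own expression machinery, 13 were below 0 at 22 °C, and their median was -0.60. Arrays were lower without overlap for 8 of the 15, against 43.1% of the 65 plastid genes and 16.6% of all probe sets. At 4 °C 10 of the 15 were below 0, and their median was -0.13. rps4, of the small subunit, gave 87.6 and 75.2 in 35S-GSH1 and 137 and 182 in Col-0, a log2 difference of -0.95 (SE 0.21, limma adjusted p = 0.743). rps19 gave 108 and 81.2 in 35S-GSH1 and 158 and 240 in Col-0, and rpl16 gave 56.1 and 27.0 in 35S-GSH1 and 82.0 and 76.1 in Col-0. In each of these 3 the genotypes did not overlap. rps3 was an exception, with 77.0 and 78.8 in 35S-GSH1 inside the Col-0 span of 68.1 to 115. matK, the maturase that helps splice plastid introns, was at 128 and 61.2 in 35S-GSH1 and at 179 and 215 in Col-0 (log2 difference -1.14, SE 0.27, limma adjusted p = 0.759). The highest 35S-GSH1 value was still below the lowest Col-0 value, although the 35S-GSH1 replicates differed about 2-fold. Of the 4 subunits of the plastid-encoded RNA polymerase, rpoC1 and rpoC2 were lower without overlap, with log2 differences of -0.58 and -1.11. rpoA overlapped at -0.72, and rpoB was higher without overlap at 0.34.

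In the photosynthetic complexes, all 5 ATP synthase genes were below 0 at 22 °C, with a median of -0.43. For photosystem I it was 3 of 5, for photosystem II 10 of 14, for the cytochrome b6f complex 3 of 6, and for the NDH complex, which cycles electrons around photosystem I, 6 of 8. At 4 °C these counts were 5 of 5 for ATP synthase, 5 of 5 for photosystem I, 12 of 14 for photosystem II, 5 of 6 for cytochrome b6f and 7 of 8 for NDH. Differences between the classes were not tested. psbI, a small subunit of photosystem II, gave 127 and 103 in 35S-GSH1 and 248 and 246 in Col-0, and its log2 difference was -1.10 (SE 0.23, limma adjusted p = 0.698). psaB, a reaction-centre protein of photosystem I, gave 143 and 126 in 35S-GSH1 and 281 and 212 in Col-0. Both are cases in which every 35S-GSH1 value was below every Col-0 value. psaA, the partner of psaB, was dim and overlapped, with 20.9 and 14.1 in 35S-GSH1 and 16.1 and 10.5 in Col-0. petA, which encodes cytochrome f, had 83.6 and 64.6 in 35S-GSH1 and 154 and 116 in Col-0. ndhD had 115 and 87.7 in 35S-GSH1 and 170 and 168 in Col-0. Neither overlapped between genotypes.

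The genes best known from green leaves were not among the clearest. psbA, which encodes the D1 protein, gave 114 and 93.8 in 35S-GSH1 and 217 and 99.6 in Col-0; the gap rested on 1 Col-0 array, and the log2 difference was 0.052 without Col-0 replicate 1. rbcL, the large subunit of Rubisco, gave 47.6 and 21.7 in 35S-GSH1 and 34.2 and 27.4 in Col-0, an overlap with a log2 difference of 0.07. psbM showed how far replicates could part: it was measured at 2153 and 363 in 35S-GSH1 and at 877 and 817 in Col-0. The extremes of the list were dim genes, ndhJ at -1.80 (3.79 and 7.81 in 35S-GSH1 against 23.52 and 19.79 in Col-0) and psbB at 0.78 (33.8 and 29.3 in 35S-GSH1 against 31.1 and 10.1 in Col-0). Most plastid genes in these paragraphs were named after their values were seen. The 4 not tested were ndhF, ndhH, psbN and atpI, whose means over the 8 arrays were under the filter level.

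**Figure D2:**
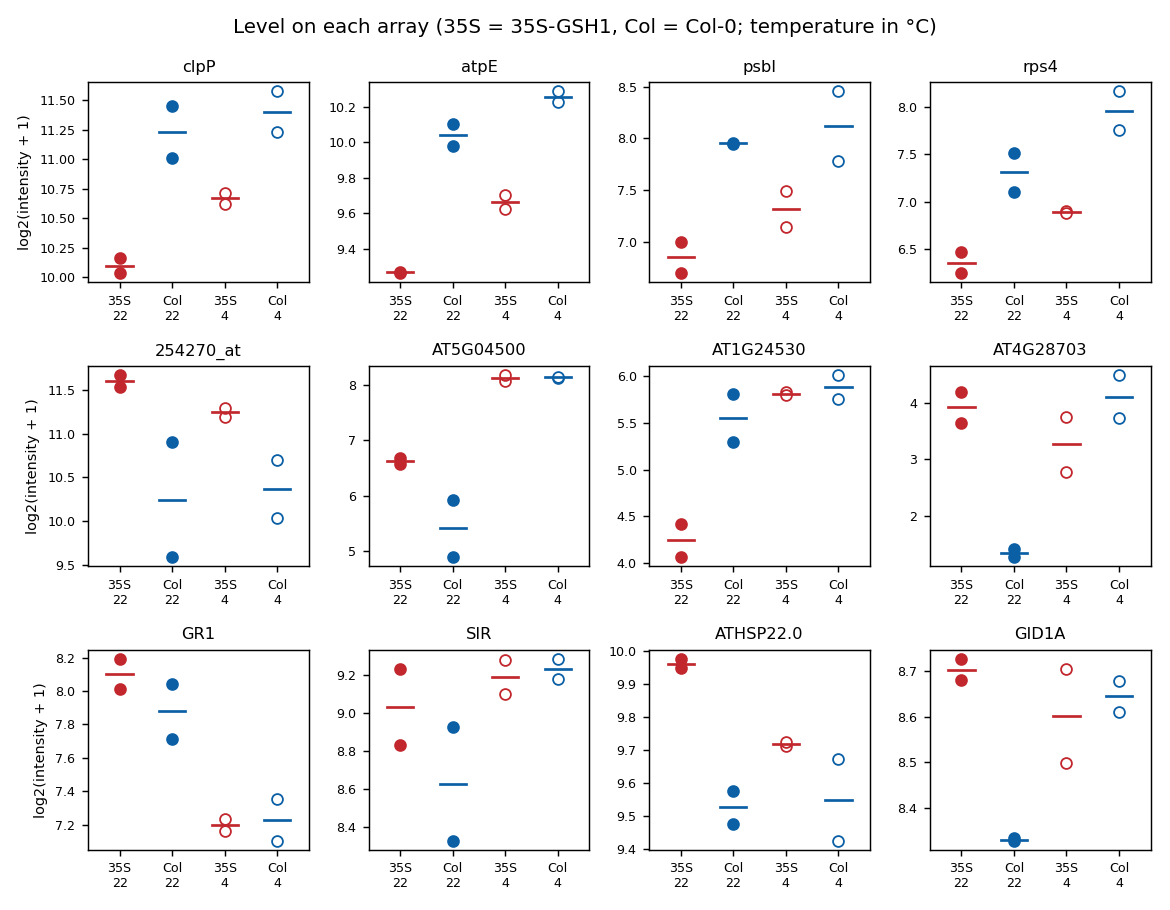
Log2(intensity + 1) on each array (points) with group means (bars) for 12 probe sets; filled points are seeds imbibed at 22 °C and open points seeds imbibed at 4 °C, with 35S-GSH1 in red left of Col-0 in blue, and each panel has its own y axis. The 4 plastid genes of the top row are lower in 35S-GSH1 at both temperatures, 254270_at is higher at both, and AT5G04500 and AT1G24530 part the genotypes at 22 °C and have close means at 4 °C.

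The seeds imbibed at 4 °C gave values for the same genotypes on arrays whose levels do not enter the 22 °C differences, although all 8 arrays shared the normalization, the filter and the estimate of the spread. There the median plastid log2 difference was -0.40, with 55 of 65 below 0 (84.6%, background 49.9%) and 24 lower without overlap (36.9%, background 16.1%). Summed plastid intensity was 9281 and 9265 in 35S-GSH1 against 16195 and 12343 in Col-0. The median plastid gene had an intensity of 56.9 and 54.3 in 35S-GSH1 against 92.5 and 58.5 in Col-0. By that measure Col-0 replicate 2 lay close to the 35S-GSH1 arrays. Lower arrays without overlap at both temperatures were found for 17 of the 65 genes (3.03% of all probe sets), and differences below 0 at both for 43 (26% of all probe sets). For 10 of the 65 (15.4%, background 0.857%) all 4 35S-GSH1 arrays lay below all 4 Col-0 arrays: clpP, atpE, psbI, rps4, ndhD, ccsA, psaJ, petL, rpoC2 and atpH. Among them rpoC2 was dim. Across the 65 genes the 22 °C and 4 °C differences correlated with Pearson's r of 0.375, a description only, since the genes share a genome and the arrays.

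With both temperatures averaged, 4 arrays against 4, the call was 3 probe sets lower in 35S-GSH1 (0.022% of those tested) and 0 higher, and all 3 were plastid genes. clpP fell by 0.93 on the log2 scale (SE 0.12, limma adjusted p = 0.0320), atpE by 0.68 (SE 0.10, limma adjusted p = 0.0457) and rps4 by 1.01 (SE 0.15, limma adjusted p = 0.0457). At 4 °C alone, clpP was at 1682 and 1571 in 35S-GSH1 against 3051 and 2401 in Col-0. The next in order by p were ndhD (limma adjusted p = 0.083) and psbI (limma adjusted p = 0.102). The count moved with the processing. It was 6 with a pseudocount of 16, 4 with robust priors, 3 with the 60th percentile filter, 1 with arrays centred on their medians, and 0 on the deposited scale, without the filter or without the intensity trend. Leaving out 1 array gave 0 without Col-0 replicate 2 or 35S-GSH1 replicate 2 of the 22 °C seeds, and 0 without Col-0 replicate 1 or either 35S-GSH1 replicate of the 4 °C seeds. It gave 1 without 35S-GSH1 replicate 1 at 22 °C, 3 without Col-0 replicate 1 at 22 °C and 8 without Col-0 replicate 2 at 4 °C. The test of whether the genotype difference itself changed with temperature called 0 probe sets by limma, with a lowest adjusted p of 0.99959 and 453 at an unadjusted p under 0.05 (3.32%). Nothing here is therefore shown to be particular to 22 °C.

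**Figure D3:**
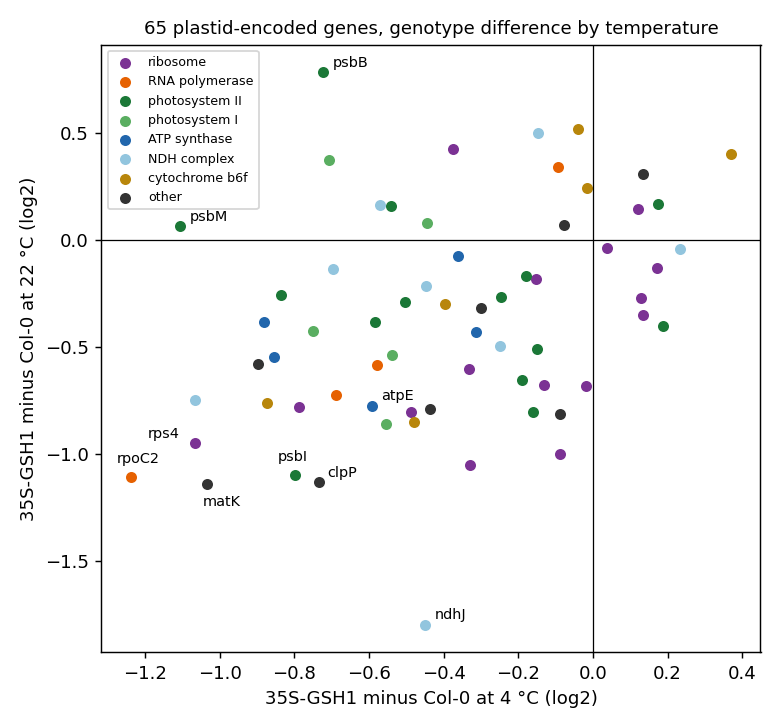
Log2 difference of 35S-GSH1 minus Col-0 at 22 °C (y axis) against the same at 4 °C (x axis) for 65 plastid-encoded genes, coloured by the complex they belong to. The lower left quadrant holds 43 genes, clpP, rps4, matK and psbI among them, while psbB and psbM lie in the upper left, below 0 at 4 °C only.

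Mitochondrion-encoded genes, mostly of respiratory subunits, had differences below 0 at 22 °C and above 0 at 4 °C, and for none of them did the test of that change pass. At 22 °C, 15 of 16 were below 0, with a median of -0.25 and 4 lower without overlap (background 16.6%). cox1, a core subunit of cytochrome oxidase, had 3284 and 2295 in 35S-GSH1 and 4923 and 3545 in Col-0 (log2 difference -0.61, SE 0.28, limma adjusted p = 0.862). At 4 °C the median was 0.18 and 14 of 16 were above 0. Single arrays carried much of the level: summed intensity was 22241 and 17101 in 35S-GSH1 and 27374 and 20256 in Col-0 at 22 °C, and 19751 and 15365 in 35S-GSH1 and 22208 and 10307 in Col-0 at 4 °C. Without Col-0 replicate 1 or without 35S-GSH1 replicate 2 of the 22 °C seeds, 10 of the 16 were below 0. Of the nuclear genes for light harvesting and photosynthesis, 6 could be tested. At 22 °C 5 of them were below 0, with a median of -0.24, and 1 of the 6 was lower without overlap, close to the background of 16.6%. That gene was LHCB4.2, an antenna protein, with 113 and 111 in 35S-GSH1 and 133 and 127 in Col-0. At 4 °C the median of the 6 was -0.021.

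Among bright probe sets, a gap in the other direction was measured for 254270_at, for which the table gives no gene. It was measured at 2959 and 3251 in 35S-GSH1 and at 1909 and 771 in Col-0, a log2 difference of 1.35 (SE 0.31, limma adjusted p = 0.759). The 35S-GSH1 replicates agreed closely and the Col-0 replicates did not. Without Col-0 replicate 1 the difference was 2.01 and passed (limma adjusted p = 0.0270). At 4 °C it was 2331 and 2516 in 35S-GSH1 against 1660 and 1048 in Col-0, so that all 4 35S-GSH1 arrays lay above all 4 Col-0 arrays, as they did for 0.989% of probe sets. Over both temperatures the log2 difference was 1.11 (limma adjusted p = 0.249).

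No tested gene that recycles or uses glutathione passed the test, and no listed gene that makes it was paired with a tested probe set. A tested probe set without a listed gene could still report such a gene. Of 21 genes of glutathione synthesis and turnover, 5 could be tested. All 5 had log2 differences above 0, with a median of 0.086, and in all 5 the arrays of the genotypes overlapped. GR1, a cytosolic and peroxisomal glutathione reductase, gave 291 and 257 in 35S-GSH1 and 263 and 209 in Col-0, a log2 difference of 0.22 (SE 0.19, 95% interval -0.18 to 0.62, limma adjusted p = 0.897). GR, the reductase of plastids and mitochondria, gave 206 and 203 in 35S-GSH1 and 208 and 189 in Col-0, which is 0.045 on the log2 scale. The glyoxalases, which use glutathione to clear methylglyoxal, were as close: GLX1 had a log2 difference of 0.12, GLX2-4 of 0.086 and GLY2 of 0.015. Leaving out single arrays put up to 2 of the 5 below 0. No gene of the glutathione peroxidase list was paired with a probe set.

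Of 52 glutathione transferases, which join glutathione to other molecules, only 4 could be tested, all of the tau class. None passed, but in all 4 the arrays of the genotypes did not overlap, 1 higher in 35S-GSH1 (background 16.8%) and 3 lower (background 16.6%). GSTU22 was at 58.8 and 48.7 in 35S-GSH1 and at 43.5 and 28.7 in Col-0, a log2 difference of 0.58 (limma adjusted p = 0.862). GSTU28 was at 20.3 and 19.4 in 35S-GSH1 and at 33.3 and 29.6 in Col-0, a log2 difference of -0.64 (limma adjusted p = 0.853). GSTU16 and GSTU26 had log2 differences of -0.13 and -0.27. GSTU26 had a narrow gap, with 19.6 and 14.4 in 35S-GSH1 against 21.3 and 19.8 in Col-0. At 4 °C GSTU28 gave -0.018, with overlapping arrays, and GSTU26 gave 0.31, higher without overlap. Of the 4 genes, 2 were above and 2 below 0 at 4 °C, with a median of 0.075.

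Sulfur assimilation supplies the cysteine for glutathione. Of 43 genes of sulfate uptake, assimilation and sulfur amino acids, 6 could be tested, 4 above and 2 below 0, and 0 passed (limma; 0 also at an unadjusted p under 0.05). Sulfite reductase SIR, which makes sulfide, had 454 and 601 in 35S-GSH1 and 484 and 320 in Col-0, a log2 difference of 0.41 (SE 0.21, limma adjusted p = 0.862) that rested on overlapping arrays. CBL, cystathionine beta-lyase of methionine synthesis, was the 1 of 6 without overlap, close to the background of 16.8%, with 378 and 378 in 35S-GSH1 against 357 and 311 in Col-0 and a log2 difference of 0.18. SDI2, named for its response to sulfur deficiency, had 0.11. The ATP sulfurylases APS3 and APS4, which activate sulfate, had -0.10 and 0.026, and the methionine gamma-lyase MGL had -0.076.

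The thioredoxin, glutaredoxin and peroxiredoxin list, whose proteins pass reducing power to other proteins, held 10 tested members of 36, split 5 above and 5 below 0, with a median of 0.060. TRXF2, a plastid f-type thioredoxin, had 15 and 15.5 in 35S-GSH1 and 8.78 and 12 in Col-0, a log2 difference of 0.53. PRXIIF, the mitochondrial peroxiredoxin, had 241 and 265 in 35S-GSH1 and 229 and 174 in Col-0, a log2 difference of 0.34. Those were the 2 of 10 without overlap, a share near the 16.8% of all probe sets that lay higher in this way. The glutaredoxins GRXC1 and GRXC2 had 0.14 and 0.19, GRX480 had 0.24 and ROXY1, which was dim, had -0.59. The plastid thioredoxins ATHM2, TY1 and ty2 had -0.092, -0.20 and -0.021, and the plastid reductase NTRC had -0.066. All 3 tested methionine sulfoxide reductases, which repair oxidised methionine, were below 0. MSRA5 was the lowest of them at -0.51, with 38.7 and 53.9 in 35S-GSH1 against 63.8 and 67.0 in Col-0. MSRB3 had -0.13 and MSRB6 had -0.31. The 4 tested genes of oxidative and mitochondrial stress responses were below 0 too, led by AT12CYS, a small mitochondrial stress protein, at -1.22, with 7.23 and 6.06 in 35S-GSH1 against 21.51 and 13.04 in Col-0 (limma adjusted p = 0.853).

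**Figure D4:**
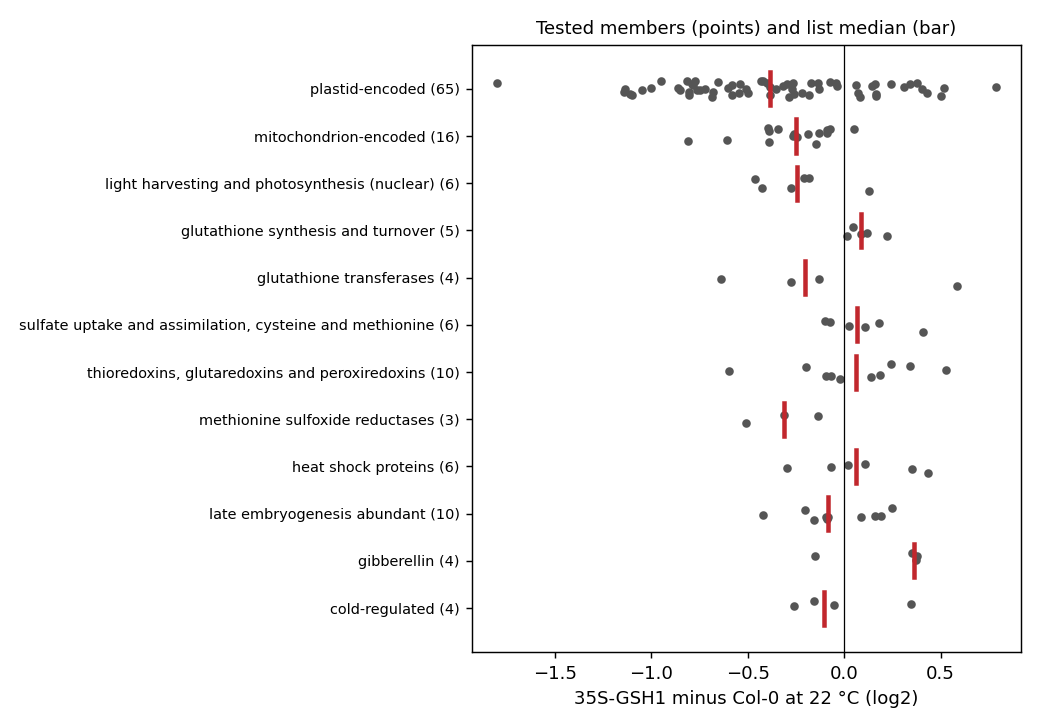
Log2 difference of 35S-GSH1 minus Col-0 at 22 °C (x axis) for the tested members (points) of 12 gene lists, with the number tested in brackets and the list median as a red bar. The plastid-encoded list has its median at -0.38 and reaches from -1.80 to 0.78, whereas the 5 glutathione genes lie between 0.015 and 0.22.

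Small heat shock proteins, which hold damaged proteins in a refoldable state and are stored in dry seeds, were bright and precisely measured. Of 6 tested, 4 were above 0 (3 on the deposited scale) and 2 had an unadjusted p under 0.05, both higher in 35S-GSH1 (background 2.93%). ATHSP22.0, of the endoplasmic reticulum, had 988 and 1007 in 35S-GSH1 and 711 and 762 in Col-0 (log2 difference 0.44, SE 0.15, limma adjusted p = 0.844). HSP17.6B had 2945 and 3623 in 35S-GSH1 and 2605 and 2516 in Col-0 (log2 difference 0.35), and the same difference of 0.35 at 4 °C. HSP23.5, of mitochondria, went the other way with 655 and 626 in 35S-GSH1 and 881 and 704 in Col-0 (log2 difference -0.30). The genotypes did not overlap in any of these 3 of the 6, 2 higher in 35S-GSH1 (background 16.8%) and 1 lower (background 16.6%).

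Gibberellin is the hormone that promotes germination. Of 4 tested genes of its pathway 3 were above 0, with a list median of 0.36, or 0.14 without Col-0 replicate 2. At 4 °C all 4 were below 0, with a median of -0.073. GID1A, a gibberellin receptor, had 409 and 422 in 35S-GSH1 against 320 and 322 in Col-0, a log2 difference of 0.37 (SE 0.16, 95% interval 0.03 to 0.71, limma adjusted p = 0.853). Replicates agreed within each genotype, but at 4 °C the difference was -0.043. SPY, a repressor of the pathway, had 268 and 320 in 35S-GSH1 against 242 and 217 in Col-0, a log2 difference of 0.35. The second receptor, GID1C, overlapped at 0.38. Of the abscisic acid and dormancy list no gene was paired with a probe set.

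The 4 groups also allow warm seeds of this line to be set beside seeds imbibed in the cold. Of 4 tested cold-regulated genes, 1 was above and 3 were below 0 at 22 °C in 35S-GSH1 against Col-0. For a few genes of this list and of the clock and late embryogenesis lists, the values of 35S-GSH1 at 22 °C can be set beside Col-0 at 22 °C and at 4 °C, and both differences share the same Col-0 22 °C arrays. STZ, a zinc-finger repressor of stress responses, had 776 and 900 in 35S-GSH1 at 22 °C, 3556 and 5304 in Col-0 at 4 °C, and 796 and 1253 in Col-0 at 22 °C. GI, a clock and flowering-time gene, had 41.0 and 47.8 in 35S-GSH1 at 22 °C, 163 and 133 in Col-0 at 4 °C, and 55.7 and 52.4 in Col-0 at 22 °C. In both genes the 35S-GSH1 seeds at 22 °C stood at or under the warm Col-0 seeds and far under the cold ones. LEA25, the late embryogenesis abundant gene with the highest 22 °C difference of 10 tested, had 718 and 780 in 35S-GSH1 at 22 °C, 2618 and 2374 in Col-0 at 4 °C, and 566 and 699 in Col-0 at 22 °C. COR27, a cold-regulated clock gene, had 239 and 243 in 35S-GSH1 at 22 °C, 265 and 324 in Col-0 at 4 °C, and 164 and 219 in Col-0 at 22 °C. Here the warm 35S-GSH1 seeds stood above both warm Col-0 arrays and below both cold ones. The 22 °C genotype differences were -0.26 for STZ, -0.28 for GI, 0.25 for LEA25 and 0.35 for COR27, and none passed. The dehydrin LTI30 had -0.15.

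Over all probe sets tested, differences of 2-fold or more with both groups above the filter level were seen for 42 higher in 35S-GSH1 (0.308%) and 53 lower (0.388%), and 5 of the 53 were plastid genes. The 10 named genes with the largest non-overlapping gaps upward ran from 1.11 to 1.73 on the log2 scale, and the 10 downward from -1.16 to -1.64. Most were dim, and at 4 °C only 5 of the upper 10 were above 0 and 6 of the lower 10 below 0. AT1G66900 led the upper side with 25.4 and 25.9 in 35S-GSH1 against 4.69 and 10.4 in Col-0 (log2 difference 1.73, SE 0.42, limma adjusted p = 0.759). AT1G20030 led the lower side at -1.64, but its 35S-GSH1 replicates were at 3.11 and 21.1 against 23.8 and 34.7 in Col-0. QQS, an orphan gene that affects starch content, had 12.98 and 21.85 in 35S-GSH1 and 41.6 and 36.4 in Col-0, a log2 difference of -1.16, and -0.85 at 4 °C. Fes1B, a nucleotide-exchange factor for HSP70 chaperones, had 1.11, and scpl44, a serine carboxypeptidase-like gene, had -1.57.

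Better measured were 2 of these 20. AT5G04500 had 94.8 and 101 in 35S-GSH1 against 28.8 and 59.9 in Col-0, a log2 difference of 1.22 (SE 0.26, limma adjusted p = 0.743), and without Col-0 replicate 2 it passed at 1.73 (limma adjusted p = 0.0361). AT1G24530 had 15.7 and 20.4 in 35S-GSH1 against 38.4 and 55.3 in Col-0, a log2 difference of -1.32 (SE 0.25, limma adjusted p = 0.545). At 4 °C both had near-equal levels, AT5G04500 with 269 and 288 in 35S-GSH1 against 279 and 284 in Col-0, and AT1G24530 with 55.9 and 54.6 in 35S-GSH1 against 63.6 and 53.2 in Col-0. The largest fitted gaps among the smallest p-values were in genes near the bottom of the intensity range. AT4G28703 had 17.2 and 11.5 in 35S-GSH1 against 1.43 and 1.68 in Col-0 (log2 difference 2.57), and the glycosyltransferase UGT85A7 had 1.78 and 6.63 in 35S-GSH1 against 30.57 and 17.56 in Col-0 (log2 difference -2.40). At 4 °C they gave -0.83 and 0.47, and the tests of the change in difference gave limma adjusted p-values that missed the threshold. The unnamed probe sets 250285_at and 257612_at had log2 differences of 1.18 and 1.01 at 22 °C and of -0.34 and -0.31 at 4 °C.

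The other families are given by their counts at 22 °C. Of 34 UDP-glycosyltransferases 16 were above and 18 below 0, of 11 cytochromes P450 it was 3 and 8, of 10 late embryogenesis abundant genes 4 and 6, and of 6 histones 3 and 3. Of 11 ubiquitin-conjugating enzymes 7 were below 0, and UBC27 had the lowest unadjusted p among them, with 326 and 317 in 35S-GSH1 against 408 and 484 in Col-0 (log2 difference -0.46). Of 8 aldehyde dehydrogenases 7 were below 0, with ALDH22A1 at 11.3 and 18.7 in 35S-GSH1 against 38.3 and 27.8 in Col-0. At 4 °C 7 of the 8 were above 0, and ALDH22A1 had a log2 difference of 0.18. The alpha-tubulin TUA6 had a log2 difference of -1.03. The beta-glucosidase BGLU19 had 4000 and 2757 in 35S-GSH1 against 2516 and 2243 in Col-0 (log2 difference 0.48). None of these passed the adjusted threshold.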

How the data were processed

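The deposited table holds linear probe-set intensity values of 22746 probe sets on 8 arrays. Per the labels' protocols, RNA was extracted with a CTAB method and labelled with biotin as cRNA; per the submitters' processing notes GCOS was used, with version, algorithm and scaling not given in the sources used here. Arrays were quantile normalized, because their 2% trimmed means lay up to 9.71% from the median array, and analysed as log2(intensity + 1), which understates differences at low intensity. The filter removed those whose mean was under the 40th percentile (intensity 6.26). limma 3.58.1 in R 4.3.3 fitted 1 coefficient per group to all 8 arrays (4 residual and 9.93 prior degrees of freedom, intensity trend). Tests were two-sided, with Benjamini-Hochberg adjustment over 13648 probe sets and a threshold of 0.05. The procedure was tested on simulated data.

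Names came from a table pairing 13513 probe sets with 1 gene, 13436 of them matched to RefSeq TAIR10.1; 503 had several genes and 8730 none listed. A gene with several probe sets is shown by the brightest. The members and 35 gene lists were chosen with earlier results of these data known. Named genes were the 10 highest and 10 lowest non-overlapping differences with both means above the filter, the 5 smallest p in each direction, all tested glutathione, transferase, sulfur and thioredoxin genes, up to 3 per other list, and any gene past the threshold in an alternative. Alternatives were a pseudocount of 16, the deposited scale, centring on medians, no filter or a 60th percentile filter, no trend, robust priors, the 22 °C arrays alone, a replicate block, other thresholds, and each array left out.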

Additional observations from a re-analysis of the deposited data

How the results depend on the processing

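At 22 °C the count past an adjusted p of 0.05 was 0 under most alternatives. It was 2 with a pseudocount of 16 (clpP, limma adjusted p = 0.0439, and the unnamed 250780_at, limma adjusted p = 0.0390), 1 at a threshold of 0.2, and 0 to 1 with 1 array left out. The labels do not say what a replicate number marks, and it was not taken as a pairing: deviations of same-numbered arrays correlated at 0.0506 to 0.143, over 0.1 in 3 of 6 pairs of groups. The arrays numbered 1 had the higher summed plastid and summed mitochondrial intensity in all 4 groups. With the number as a replicate block the count was 1 at 22 °C (clpP, limma adjusted p = 0.0309) and 10 over both temperatures, against 3. Over both temperatures it was otherwise 6 with a pseudocount of 16, 1 with centring on medians, 0 on the deposited scale, without the filter and without the trend, and 0 to 8 with 1 array left out. The count at an unadjusted p under 0.05 was 1314 without the filter, which tests more probe sets. The plastid median was -0.56 with the 60th percentile filter, which leaves out dim genes, and -0.62 to -0.20 with 1 array left out. The alternatives for the plastid median and for list counts, and leaving out the 4 °C arrays, were chosen after seeing the data.

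Signs that turned belonged to values near 0 or to replicates that parted. On the deposited scale APS4 was -0.042 and nad1 -0.0076. With centring on medians ty2 was 0.020, NTRC 0.0044 and OLEO3 0.021. With 1 array left out the ranges were as follows. Among plastid genes, atpA ran from -0.90 to 0.13, atpB from -0.29 to 0.14, psbA from -1.07 to 0.052, psbC from -1.35 to 0.044, psbK from -0.76 to 0.18, psbM from -1.22 to 1.35, rbcL from -0.48 to 0.62 and rps3 from -0.55 to 0.19, and mitochondrial nad1 from -0.36 to 0.46. Among glutathione and sulfur genes, GLX1 ran from -0.087 to 0.33, GLX2-4 from -0.12 to 0.29, GLY2 from -0.063 to 0.092, GR from -0.022 to 0.11, APS3 from -0.22 to 0.017, APS4 from -0.19 to 0.25, MGL from -0.34 to 0.19 and SDI2 from -0.17 to 0.38. Among redox genes, GRX480 ran from -0.34 to 0.83, GRXC1 from -0.097 to 0.38, GRXC2 from -0.017 to 0.39, ROXY1 from -1.50 to 0.31, ATHM2 from -0.25 to 0.066, NTRC from -0.32 to 0.18, ty2 from -0.13 to 0.089, MSRB3 from -0.38 to 0.12 and MSRB6 from -0.93 to 0.31. LTI30 ran from -0.34 to 0.035, STZ from -0.58 to 0.070 and OLEO3 from -0.28 to 0.22. Where not stated, the cause was not tested. In fits on 7 arrays, the single remaining array of a group borrowed its spread from the other groups.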
